A study of Mus musculus with 4 samples.

Results

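Regulatory T cells (Tregs) were 205 of the 28290 cells in 4 single-cell libraries of CD45-positive cells from MC38 tumors, a transplanted mouse colon carcinoma. They were chosen by their RNA alone. A Treg had no fewer than 500 detected genes, no more than 10% mitochondrial unique molecular identifiers (UMIs, counted RNA molecules), at least 3 UMIs of the T cell receptor subunits Cd3d, Cd3e and Cd3g together, less than 0.2% of UMIs from the macrophage genes C1qa, C1qb, C1qc and Csf1r, at least 1 UMI of Foxp3 and none of Cd8a or Cd8b1. The isotype control library held 97 of them, the library titled anti-human CTLA-4 held 51, the library titled anti-mouse FcγRII held 46 and the combination library held 11. These numbers follow from the rule and are a description.

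The hosts were B-hCTLA-4 mice on C57BL/6, which carry a humanised CTLA-4. Per the sample records each library was 1 pool of tumors from 11 mice, taken on day 8 after 3 treatments that began at a tumor size of about 100 mm3. Isotype control mice received human IgG1 at 10 mg/kg, and combination mice received ipilimumab, an antibody to human CTLA-4, at 10 mg/kg with AT130-2 mIgG1-N297A, an antibody to mouse FcγRII with an Fc mutation that reduces Fc receptor binding, at 20 mg/kg. The article on these data describes other doses, tumor numbers and sizes and another day of harvest for the sequenced tumors, and the sample records are followed here. In the records of the single-antibody libraries, title and treatment field contradict each other over the antibody given. These libraries are therefore called by their titles (CTLA-4-titled and FcγRII-titled) and which antibody each received was not settled. The age of the mice is not stated for these samples. Values are given in the order isotype control, CTLA-4-titled, FcγRII-titled and combination. The libraries held 8173, 6390, 6097 and 7630 cells and 178178393, 129151823, 142472286 and 196362818 UMIs. With 1 library per group there is no test between libraries, and every interval is a 95% interval that covers counting error only. Intervals of levels and of their ratios treat UMIs as independent and leave out the spread between cells.

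Tregs are CD4 T cells that hold other lymphocytes in check, and the transcription factor Foxp3 is required for their identity. In tumors many carry the high-affinity IL-2 receptor chain Il2ra, the inhibitory receptor Ctla4, the transcription factor Ikzf2 (Helios) and the costimulatory receptor Tnfrsf4 (OX40) at high levels. Ctla4 on their surface makes them a target of antibodies whose Fc parts engage Fc receptors on macrophages. Effector Tregs, which have met antigen, further express Klrg1, Itgae (CD103), Icos and Tnfrsf9 (4-1BB), whereas resting Tregs keep the lymph node homing receptor Ccr7.

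Foxp3, on chromosome X from 7573644 to 7595245 of GRCm38, was counted at a median of 7, 9, 8.50 and 11 UMIs per Treg. Just inside the threshold, 8 of the 205 Tregs held 1 Foxp3 UMI, and just outside it 760 cells of the same gate without Cd8 UMIs held none. Among the 11 combination Tregs the lowest Foxp3 count was 5 UMIs. A Cd4 UMI, which the rule did not ask for, was present in 90, 48, 39 and 10 Tregs. Cells with macrophage genes and without Cd3, which should lack Foxp3, held a Foxp3 UMI in 0.0917%, 0%, 0.0239% and 0% of cells once each cell was drawn down to 2724 UMIs. For these Foxp3 shares the mean number of cells over the draws was rounded to a whole cell, so 0% need not mean none. Before the drawing 20 of 4433, 3 of 3490, 8 of 4218 and 2 of 3557 such cells held one. The exact binomial bounds for the libraries at 0 were 0.107% and 0.106%. CD8-positive T cells of the same gate held one in 8.26%, 1.34%, 5.88% and 0.851% at that depth. Tregs were chosen for a Foxp3 UMI, and 92.0%, 93.3%, 87.5% and 90.9% of them held one after the drawing, which is a description. The undrawn medians were 4567, 4329, 5014 and 8367 UMIs per Treg against 16407, 20288, 20652 and 22827 per macrophage-gene cell and 5263, 6947, 6637 and 7931 per CD8-positive T cell. Tregs of every library also held RNA of Il2ra, Ctla4, Ikzf2 and Tnfrsf4, with levels given below.

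A few cells bear on all levels below. Of the 205 Tregs and the 438 Foxp3-negative CD4 T cells they are compared with, 5 held over 50000 UMIs. A Treg of 234377 UMIs made up 45.3% of all Treg UMIs of the CTLA-4-titled library, with 1798 UMIs of the cytoskeletal gene Vim and 479 of the matrix gene Fn1. A Treg of 93841 UMIs made up 20.6% of those of the FcγRII-titled library, with 818 UMIs of Fn1 and 732 of the collagen gene Col3a1. Levels are therefore given without the 5 cells, a choice made after they were seen, and counts from the test are given both ways. RNA of macrophage marker genes was present too. The 16 macrophage markers supplied at least 1% of UMIs in 18 of 97, 2 of 50, 8 of 45 and 3 of 11 Tregs, and the 3 such cells of the combination held 51.7% of the UMIs of its Tregs. Comparisons with the combination are therefore also given for Tregs under 1%, which were 79 in the isotype control and 8 in the combination. The macrophage limit of the rule had already left out 338, 49, 150 and 31 cells with Cd3 and Foxp3 UMIs and no Cd8 UMI. No full cell barcode was shared between libraries. The first 16 bases of the barcode were shared by between 712 and 1148 barcodes for each pair of libraries, which were loaded as a pool and carry different probe barcodes.

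CD4 T cells were taken as Tregs plus Foxp3-negative cells of the same gate with a Cd4 UMI. Tregs were 97 of 205 of them in the isotype control, 51 of 238 in the CTLA-4-titled library, 46 of 86 in the FcγRII-titled library and 11 of 114 in the combination. These are shares of 47.3% (exact binomial interval 40.3 to 54.4), 21.4% (16.4 to 27.2), 53.5% (42.4 to 64.3) and 9.65% (4.92 to 16.6). The combination stood at 0.204 times the isotype control (log interval 0.114 to 0.364), the CTLA-4-titled library at 0.453 times (0.341 to 0.601) and the FcγRII-titled library at 1.13 times (0.885 to 1.44). The intervals of the isotype control and the FcγRII-titled library overlapped, and those of the other libraries lay below both and overlapped each other. When every gated T cell was drawn down to 2428 UMIs before Foxp3, Cd8 and Cd4 were read, the shares were 51.5%, 23.2%, 51.7% and 11.4%. Without the macrophage limit the combination stood at 0.209 times the isotype control (0.156 to 0.280), with 42 such cells among 380. A share of CD4 T cells does not tell fewer Tregs from more of the others, and the counts are given for that reason. Of 8148, 6364, 6083 and 7599 cells that passed the limits on genes and mitochondrial UMIs, 1.19%, 0.801%, 0.756% and 0.145% were Tregs, and 108, 187, 40 and 103 cells were Foxp3-negative CD4 T cells. The comparator was thus of like number in the isotype control and the combination. A share of sorted cells does not give the number of cells per tumor.

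**Figure D1:**
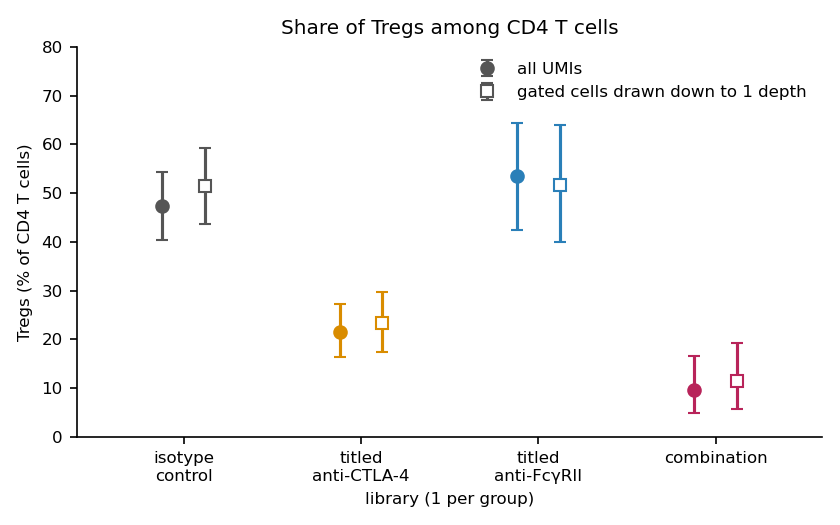
Tregs as a percent of CD4 T cells (y axis) in each of the 4 libraries (x axis), for all UMIs and after gated T cells were drawn down to 1 depth, with exact binomial 95% intervals that cover counting error only. The combination sits lowest at 9.65%, and the isotype control and FcγRII-titled libraries have overlapping intervals at 47.3% and 53.5%.

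Which genes mark Tregs in all 4 libraries was asked by comparing UMIs summed over Tregs with UMIs summed over Foxp3-negative CD4 T cells of the same library, with the library as a block, in edgeR's quasi-likelihood test. Klrg1, Itgae, Ikzf2, Il2ra and Ctla4 were among the genes that rose, and Cd40lg, Ifng and Tcf7 were among those that fell. Leaving out genes of the gate, 20 genes were higher and 25 lower in Tregs at an adjusted p under 0.05. The background, gate genes included, was 0.252% of 8322 genes called higher and 0.3% called lower. Without the 5 cells over 50000 UMIs the counts were 133 and 109 of 7424 genes (background 1.8% and 1.48%), and they included all 20 and all 25. Leaving out a library over all cells gave 8 to 25 genes higher and 10 to 23 lower, the fewest higher without the combination and the fewest lower without the FcγRII-titled library. The libraries differ in treatment, and the test asks what held across them.

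Of 11 tested identity genes, 6 rose in Tregs and none fell, with a median log2 fold change of 1.61 beside 0.0038 over all genes tested, and 9 rose without the 5 cells. Ikzf2 stood at 973, 1257, 795 and 544 CPM (UMIs of the gene per 1000000 UMIs of the class) in Tregs, against 88.9, 120.3, 327 and 52.7 in the comparator. It was higher in Tregs of every library and rose by 2.89 on the log2 scale (SE 0.345, adjusted p 0.00721, edgeR). Il2ra stood at 1249, 1010.1, 1437 and 649 in Tregs against 471, 193, 296 and 127, higher in every library, and rose by 2.10 (SE 0.223, adjusted p 0.00497). Ctla4 stood at 531, 572, 498 and 328 against 149, 159, 199.6 and 116 and rose by 1.61 (adjusted p 0.0157). Whether the Ctla4 probes cover the humanised transcript is not stated in the sources used here. Tnfrsf4 stood at 823, 978, 847 and 455 against 172, 270.2, 436 and 274. It did not pass over all cells (log2 1.46, adjusted p 0.112) and passed without the 5 cells (adjusted p 0.00435). Lrrc32 (GARP, which displays latent TGF-β on the Treg surface) rose by 3.57, Ikzf4 (Eos, a partner of Foxp3) by 2.49 and Izumo1r (folate receptor 4) by 2.23. On GRCm38, Ikzf2 lies on chromosome 1 from 69531214 to 69687245, Ctla4 on chromosome 1 from 60887000 to 60915832, Il2ra on chromosome 2 from 11642807 to 11693193 and Tnfrsf4 on chromosome 4 from 156013843 to 156016612.

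Of 15 tested effector Treg genes, 4 rose and none fell over all cells, with a median of 1.03, and 10 rose without the 5 cells. Klrg1, an inhibitory receptor for cadherins, stood at 553, 240.2, 515 and 82.0 CPM in Tregs against 34.0, 19, 48.4 and 5.27. It was higher in Tregs of each library, also of the combination, and rose by 3.77 (SE 0.293, adjusted p 0.000611). Itgae, the integrin chain that pairs to bind E-cadherin, stood at 305, 229.6, 305 and 96.9 against 32.1, 16.9, 48.4 and 7.38 and rose by 3.34 (adjusted p 0.000551). Gzmb, a cytotoxic protease, rose by 2.47 and Tnfrsf9 by 2.29. Without the 5 cells Icos, Prdm1, Maf, Entpd1 (CD39), Itgb8 and Cd81 also passed. Other genes among the 15 with the highest fold change were Neb (log2 3.71), Rln3 (3.38), Ephx1 (2.72), Ncmap (2.59), Bmyc (2.04) and Arl5a (2.01). Neb encodes a giant protein of muscle filaments and Rln3 a relaxin hormone. Neb stood at 174, 148, 161 and 82.0 in Tregs against 17.0, 8.44, 12.1 and 5.27, and Rln3 at 97.7, 124, 108 and 74.6 against 9.46, 7.39, 42.3 and 1.05. Both were higher in Tregs of all 4 libraries.

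Among 9 receptors of the TNF and CD28 families, Tnfrsf9 and Cd27 rose over all cells, and Tnfrsf4, Tnfrsf18 (GITR), Tnfrsf1b and Icos joined them without the 5 cells. Of 13 resting genes 1 rose and 1 fell over all cells, and 1 rose and 2 fell without the 5 cells. The gene that fell both ways, Tcf7 (TCF-1, a factor of resting and memory T cells) stood at 8.75, 53.0, 16.6 and 37.3 in Tregs against 221, 234, 290.3 and 98.1 and fell by 2.96 (adjusted p 0.0182, edgeR). Without the 5 cells Bcl2, which protects cells from apoptosis, fell too (adjusted p 0.0316). Ccr7 did not pass (log2 -1.23, adjusted p 0.181).

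Of 13 tested Th1 and helper genes, 4 fell and none rose (median -1.28), and 7 fell without the 5 cells. Ifng (interferon-γ) stood at 14.6, 14.1, 30.5 and 7.46 CPM in Tregs against 178, 525, 266 and 118 and fell by 3.87 (SE 0.459, adjusted p 0.00721). Cd40lg, the helper signal to dendritic and B cells, stood at 8.75, 24.7, 8.31 and 0 against 231, 284, 315 and 269 and fell by 4.62 (adjusted p 0.000551). Both were lower in Tregs of every library. Il18rap and Gzmk fell too, and Gzmk had 3 UMIs in all Tregs together. Il13, a type 2 cytokine, had no UMI in Tregs, against 216, 172, 1052 and 486 in the comparator, and Ccl1, the ligand of Ccr8, had 1 UMI in Tregs against 28.4, 224, 242 and 637. The remaining genes named on the lower side were Igfbp7, Ramp3, Themis (a T cell receptor signal protein, log2 -2.98) and Dtx1 (-2.73). Tgfbr2, a TGF-β receptor chain, fell by 1.25 (adjusted p 0.0251).

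Other lists held few calls. None of 25 interferon response genes, 10 MHC class I genes, 14 glycolysis and hypoxia genes, 13 NF-κB feedback genes, 14 early T cell receptor signal genes, 13 G2/M genes or 9 tissue repair genes passed edgeR's test over all cells. At an unadjusted p under 0.05 they numbered 3, 0, 1, 2, 1, 0 and 2, where 7.61% of all 8322 genes were under it, and DESeq2 called none of them. Without the 5 cells 3 of these genes passed, the interferon-induced GTPase Iigp1 (adjusted p 0.0355) and the NF-κB regulator Bcl3 (0.0332) on the higher side and the early gene Fosb (0.0215) on the lower. Of 11 chemokine receptors none passed (7 at an unadjusted p under 0.05, 3 in DESeq2), and without the 5 cells 3 rose, among them Ccr2 and Ccr4, and Cxcr6 fell. Marker genes of other cell types were counted in the Treg sums as well, and which cells that RNA came from was not tested. The 16 macrophage markers summed to 11460, 3281, 9988 and 21272 CPM, with the most UMIs from Ctss in the first 3 libraries and from Apoe in the combination. The 9 B cell markers summed to 839, 1250.3, 712 and 760.5, nearly all of it Ighm, while Ms4a1, Cd79a, Pax5 and Ebf1 were at 0 in each library. The 12 stromal and tumor markers summed to 152, 159, 116 and 201, with the most UMIs from Pecam1 and none from Sparc, Pdgfra and Cdh5. NK cell markers summed to 1227, 544, 939 and 1737, mostly Tyrobp UMIs. CD8 T cell markers outside the gate summed to 842, 1049, 717 and 909.6, with the most UMIs from Ccl5. In edgeR's test none of 16 macrophage and 7 dendritic cell markers passed over all cells (2 and 0 at an unadjusted p under 0.05, 1 and 0 in DESeq2), and of 5 CD8 markers Gzmk fell. Without the 5 cells the macrophage marker Ctss and the B cell marker Ighm rose (adjusted p 0.0227 and 0.00415), the NK cell marker Klrd1 fell (0.00461), Ccl5 fell beside Gzmk, and no dendritic cell marker passed. The part of these cell types in the differences was not tested.

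**Figure D2:**
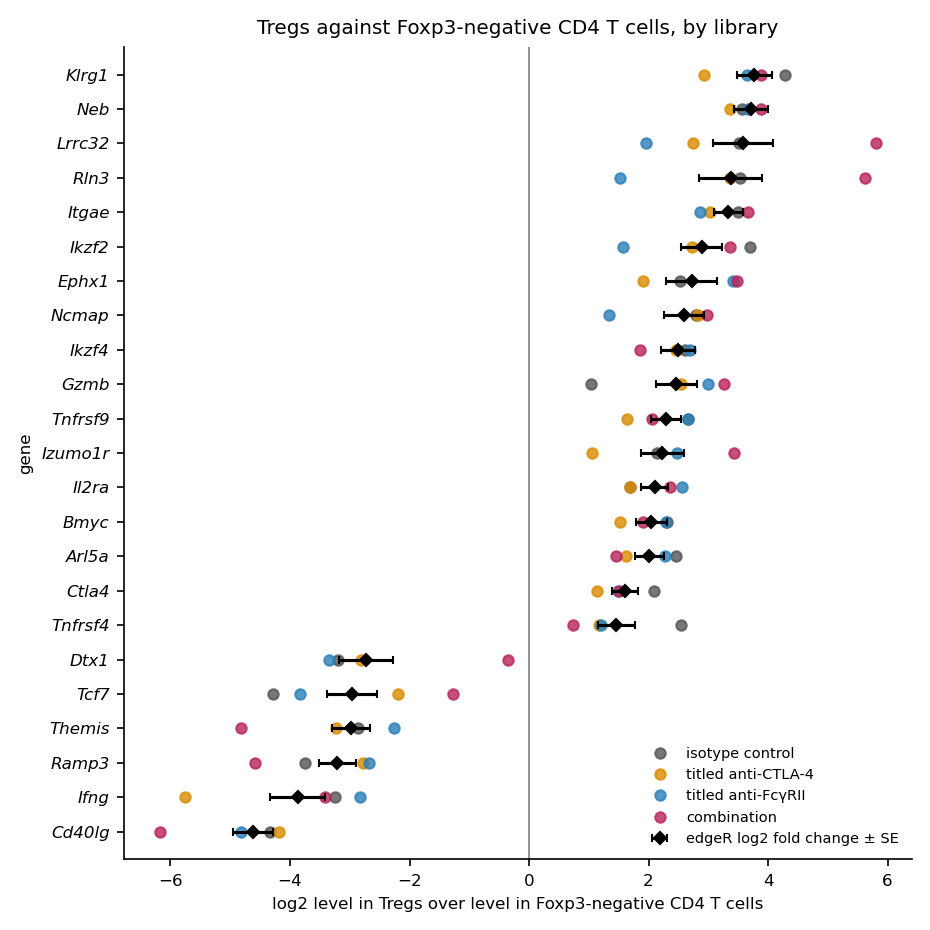
Log2 level in Tregs over Foxp3-negative CD4 T cells (x axis) for named genes (y axis), with the 4 libraries as points and the edgeR estimate with its SE. Genes with 3 or fewer UMIs in all Tregs are not drawn. Klrg1 has the highest edgeR estimate drawn, 3.77, while single libraries reach farther for Lrrc32 and Rln3.

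The Tregs left in the combination were next compared with isotype control Tregs by the ratio of their levels. A gene counted as different where it had at least 100 CPM in the higher library, a UMI in at least 3 of its Tregs, at least a 2-fold ratio and an interval without 1. Of 3124 genes at 100 or more in either library, 172 were higher (5.51%) and 144 lower (4.61%) in the combination, and the median ratio was 1.01. For 68 of the 172 higher genes (39.5%), at least 50% of the combination UMIs came from 1 cell. In Foxp3-negative CD4 T cells, where the same rule called 5.73% of genes higher and 1.96% lower, 43 of the 172 were also higher and 18 of the 144 were higher, not lower. Among Tregs under 1% macrophage marker UMIs the counts were 213 (6.45%) and 184 (5.57%) of 3303 genes, and 65 of the 172 and 83 of the 144 were in both. The sums rest on 134122 UMIs in 11 cells against 685541 UMIs in 97 cells, and the largest combination Treg held 20.9% of its sum.

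Of 14 effector Treg genes considered, 8 were lower by this rule (background 4.61%) and none higher (5.51%), with a median ratio of 0.442. Among Tregs under 1% macrophage UMIs, 7 of 13 were lower (background 5.57%) and 1 higher (6.45%), with a median of 0.427. Relative to the isotype control Klrg1 was at 0.148 times (0.0734 to 0.268), with UMIs in 3 of 11 combination Tregs and 63.6% of them in 1 cell. Itgae was at 0.318 times (0.166 to 0.556), Icos, a costimulatory receptor, at 0.495 times (0.394 to 0.615) and Itgb8, an integrin chain that activates TGF-β, at 0.249 times (0.0664 to 0.663). Cd81 stood at 0.277 times, Prdm1 (Blimp-1, a regulator of effector differentiation) at 0.389 times and Ccr8, a chemokine receptor of tumor Tregs, at 0.183 times (0.0584 to 0.436). Il10, an inhibitory cytokine, had 73 UMIs in 19 of 97 isotype control Tregs and none in the 11 of the combination, where 3 UMIs would be 22.4 CPM and the interval of the ratio reached up to 0.265. These are the 8 genes, and 7 of them were also lower under 1% macrophage UMIs. The exception was Prdm1, at 0.496 times (0.177 to 1.13). In Foxp3-negative CD4 T cells the combination was also lower for Klrg1, at 0.155 times (0.0450 to 0.433) from 5 against 18 UMIs, and for Itgae, at 0.230 times (0.0805 to 0.583) from 7 against 17 UMIs, with intervals that overlapped those in Tregs. Il10 was at 0.0514 times (0.0267 to 0.0908) there, with all 141 isotype control UMIs in 1 cell. Ccr8, at 2.43 times (1.79 to 3.36), and Cd81, at 2.35 times (1.48 to 3.88), were higher in the combination in these cells. In Tregs Tnfrsf9 did not go with the 8 genes, at 1427, 1466, 1792 and 1558 CPM and 1.09 times (0.936 to 1.27), and Entpd1 stood at 241, 127, 238 and 380.2, with a ratio of 1.58. When Tregs with a UMI of Mki67 or Top2a were left out, which left 5 combination and 55 isotype control Tregs, Icos was at 0.533 times and Itgb8, with 3 UMIs in the combination, at 0.393 times, neither past the rule. Of 14 effector genes considered there, 7 were lower (background 6.19%) and none higher (6.06%), with a median of 0.407. With a limit of 0.5% on the macrophage genes of the gate, which gave 13 and 119 Tregs, 6 of 11 genes were lower (background 4.27%), and Prdm1 (0.862 times), Itgb8 (0.194 times) and Il10 (0.180 times) no longer passed, a side under 3 UMIs being set to 3. Of these only Prdm1 had moved toward 1, since Itgb8 and Il10 stood at 0.249 and 0.210 times before.

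Against the same isotype control Tregs, 3 of 13 effector genes were lower (background 6.67%) and none higher (2.77%) in the CTLA-4-titled library, with a median of 0.80. In the FcγRII-titled library none was lower (1.19%) and 1 higher (0.99%), with a median of 1.08. Klrg1 was at 0.434 times (0.331 to 0.564) in the CTLA-4-titled Tregs and at 0.932 times (0.777 to 1.11) in the FcγRII-titled Tregs. Gzmb was the gene past 2-fold in the latter, at 858, 1074, 2013 and 447 CPM over the 4 libraries and 2.35 times (2.10 to 2.62). Icos stood at 1357, 1328, 1459 and 671 in Tregs and at 796, 775, 792 and 447 in Foxp3-negative CD4 T cells, so that the combination was lowest in both classes.

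Of 11 identity genes considered, 2 were higher by the rule (background 5.51%) and 1 lower (4.61%) in the combination, with a median ratio of 0.618. This count depended on the cells taken, with 2 higher and 5 lower where the macrophage genes of the gate were under 0.1% (background 7.82% and 6.42%), 1 and 5 where they were under 0.5% (4.84% and 4.27%), and none and 4 of 10 in the 5 and 55 Tregs without Mki67 or Top2a UMIs (6.06% and 6.19%). Il2ra stood at 0.519 times (0.412 to 0.648), Ctla4 at 0.618 times (0.441 to 0.846), Ikzf2 at 0.559 times (0.433 to 0.713) and Tnfrsf4 at 0.553 times (0.417 to 0.721), all lower by less than 2-fold. Tnfrsf18 was the gene past it, at 0.478 times (0.360 to 0.623), but it did not pass under 1% macrophage UMIs, at 0.592 times (0.434 to 0.792), or as a mean over cells, at 0.501 times. Under 1% macrophage UMIs Il2ra was at 0.742 times (0.578 to 0.941), Ctla4 at 0.752 times (0.522 to 1.05), Ikzf2 at 0.576 times (0.422 to 0.770) and Tnfrsf4 at 0.330 times (0.209 to 0.497). Lrrc32 was higher, at 184, 349.6, 152 and 439.9 CPM and 2.39 times (1.73 to 3.29), with UMIs in 7 of 11 cells. Taken as a mean over cells its ratio was 1.85, and without Tregs with Mki67 or Top2a UMIs 1.35, from 18 UMIs in 2 of 5 combination Tregs. Nrp1 (neuropilin-1, which many Tregs of thymic origin carry) stood at 80.2, 205, 49.8 and 164 and 2.04 times (1.19 to 3.41), but at 0.786 times when those Tregs were left out, from 5 UMIs in 5 combination Tregs against 30 in 55 of the isotype control. In the CTLA-4-titled Tregs Lrrc32 stood at 1.90 times (1.45 to 2.50) and Nrp1 at 2.55 times (1.73 to 3.76).

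Of 11 genes considered that are switched on soon after T cell receptor engagement, 5 were lower (background 4.61%) and none higher (5.51%). Their median ratio was 0.483. Under 1% macrophage UMIs 5 of 10 were lower (background 5.57%), with a median of 0.61. The orphan nuclear receptor Nr4a1 stood at 349, 219, 413 and 89.5 CPM and 0.257 times (0.131 to 0.457), and its relative Nr4a3 at 123, 14.1, 191 and 22.4 and 0.183 times (0.0369 to 0.552). The AP-1 genes Fosb and Jun were at 0.388 and 0.457 times. Egr3, also an early gene, had no UMI in the combination and stood at 102, 14.1 and 41.5 in the others. Few cells carried either gene. With the macrophage genes of the gate under 0.1%, Nr4a3 had UMIs in 2 of 10 combination and 10 of 78 isotype control Tregs. The share of cells with Nr4a3 was thus not lower in the combination. Egr3 had UMIs in 0 of 10 and 6 of 78 of these cells. Without Tregs with Mki67 or Top2a UMIs, Nr4a1 stood at 0.501 times, from 10 UMIs in 2 of the 5 combination Tregs left. Nr4a3 and Egr3 had no UMI in these 5, against 18 and 22 UMIs in 3 and 4 of 55 isotype control Tregs, too few for a ratio to be read. None of the 3 passed the rule in these cells. Of 9 early genes considered there, 5 were lower (background 6.19%) and none higher (6.06%), with a median of 0.372. With the macrophage genes of the gate under 0.5%, 3 of 9 genes were lower (background 4.27%), and Jun (0.669 times), Nr4a3 (0.164 times) and Egr3 (0.203 times, 0.219 before) no longer passed. Of these only Jun had moved toward 1. Junb, at 1.06 times (0.840 to 1.33), did not pass. Against the same control, 4 of 11 genes were lower in the CTLA-4-titled Tregs (background 6.67%), with a median of 0.51. Rgs16, a regulator of G protein signalling, had 159 UMIs in 47 isotype control Tregs and none in the combination Tregs. In Foxp3-negative CD4 T cells Nr4a1 stood at 127 in the isotype control and 486 in the combination and Nr4a3 at 24.6 and 225, higher in the combination, while Fosb stood at 594 and 390.2.

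Lag3, an inhibitory receptor, stood at 251, 45.9, 291 and 52.2 CPM in Tregs, lower than the isotype control in the combination at 0.208 times (0.0824 to 0.438) and in the CTLA-4-titled library at 0.183 times (0.0955 to 0.321). Pdcd1 (PD-1) stood at 197, 265, 224 and 82.0, and under 1% macrophage UMIs at 0.701 times (0.339 to 1.31). Cxcr6, a chemokine receptor of tumor T cells, had no UMI in the combination Tregs and stood at 61.3, 45.9 and 191 in the others, against 467, 632, 780.3 and 616 in the comparator. The integrin chain Itgb1 stood at 209, 526, 180 and 582, with 2.79 times (2.09 to 3.70) in the combination and 2.52 times (1.99 to 3.20) in the CTLA-4-titled library. Its partner Itga4 stood at 91.9, 233, 74.8 and 171, and S1pr1, a receptor that guides T cells out of tissue, at 84.6, 265, 44.3 and 164. For all 3 genes these libraries had the higher levels, and only for Itgb1 were their counting intervals clear of both others. Of 10 resting genes considered none passed the rule in the combination (median 1.11). In the CTLA-4-titled Tregs 3 were higher (background 2.77%, median 1.51), among them Ccr7 at 27.7, 141, 30.5 and 104 over the 4 libraries.

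**Figure D3:**
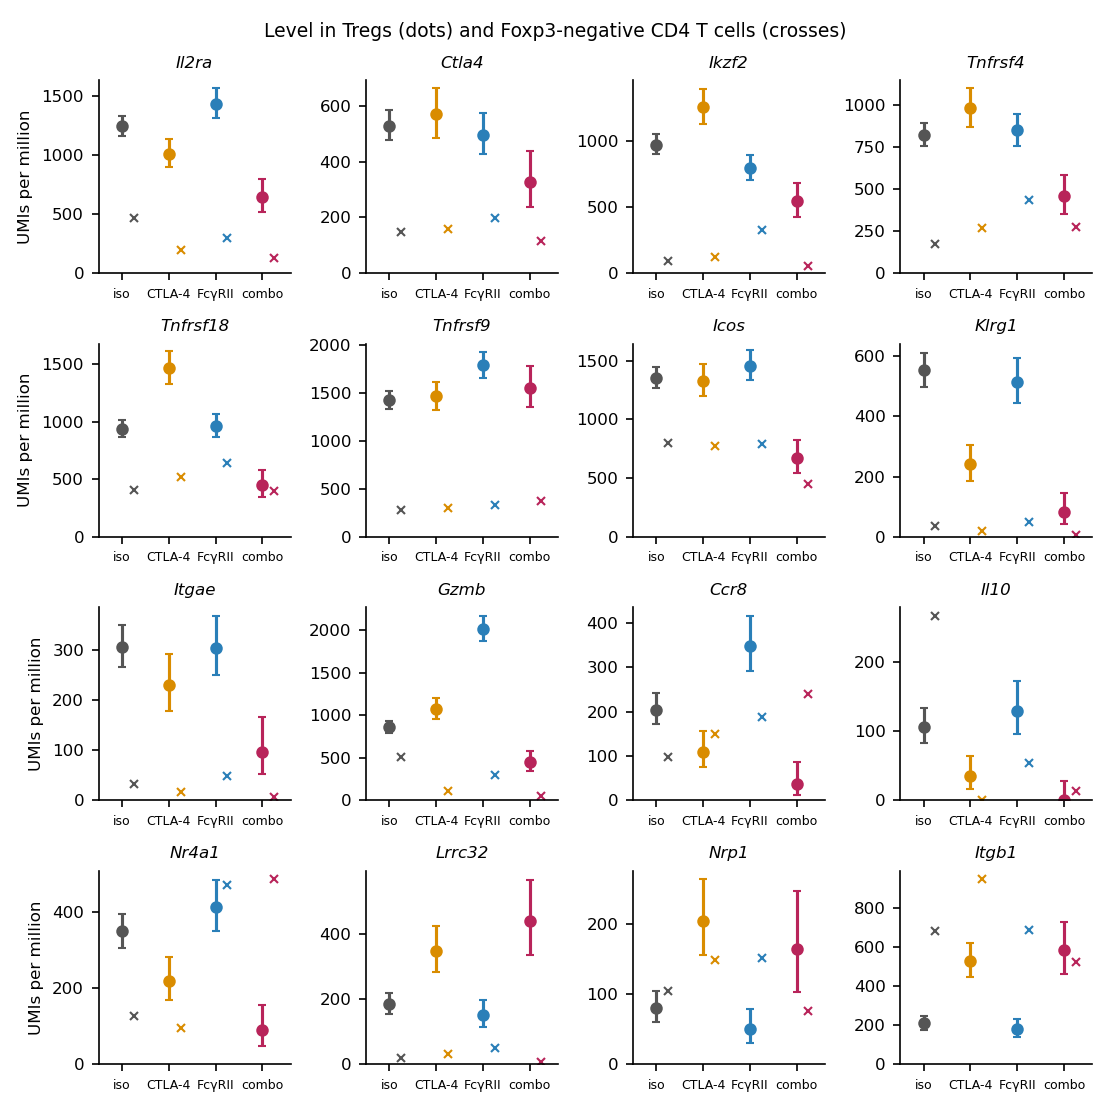
Level of 16 genes in Tregs (dots, with exact Poisson 95% intervals for counting error) and in Foxp3-negative CD4 T cells (crosses) of each library (x axes), in CPM (y axes). Klrg1 in Tregs was at 553, 240.2, 515 and 82.0 and Lrrc32 at 184, 349.6, 152 and 439.9.

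Interferon response genes were higher for 4 of 22 considered (background 5.51%) and lower for 1 (4.61%), with a median of 0.98. Gbp2, an interferon-induced GTPase, stood at 382, 201, 260.3 and 947 CPM and 2.48 times (1.99 to 3.07), and Oasl2 at 86.1, 53.0, 41.5 and 336 and 3.90 times (2.58 to 5.84). Both were also higher under 1% macrophage UMIs. Irf7, an interferon regulatory factor, was at 2.44 times with 72.7% of its combination UMIs in 1 cell, and under 1% at 0.579 times (0.181 to 1.44). B2m, the light chain of MHC class I, stood at 1355, 2296, 2747 and 3691 in Tregs and at 1118, 2259, 2589 and 3069 in Foxp3-negative CD4 T cells, lowest in the isotype control in both classes. None of 13 glycolysis and hypoxia genes passed in the combination (median 1.00), and 5 of 13 were lower in the CTLA-4-titled Tregs (background 6.67%, median 0.61). Tregs with at least 1% macrophage marker UMIs were 2 of 50 there and 18 of 97 in the isotype control. Their part in this was not tested. Of 13 genes downstream of IL-2 and STAT5 none passed in the combination (median 0.910). Of 12 genes of the TGF-β, IL-10 and IL-35 pathways 2 were higher (background 5.51%) and 2 lower (4.61%), with a median of 0.794.

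The 10 genes on each side with interval bounds farthest from 1 were looked at next. On the higher side S100a8 and S100a9, whose proteins are abundant in neutrophils, had 133 and 131 UMIs in 3 and 4 of 11 combination Tregs, against 1 UMI each in the isotype control. The others were Slpi, Pf4, Cxcl9, Slc7a11, Hmox1, Acod1, Gclm and Il18bp, and a single cell held 95.9% of the Pf4 UMIs and 94.7% of the Cxcl9 UMIs. Of these genes, S100a9 was also higher in Foxp3-negative CD4 T cells of the combination, at 29.6 times the isotype control (5.08 to 1189). So were Slpi at 46.6 times (12.7 to 388), Cxcl9 at 7.08 times (5.37 to 9.49) and Acod1 at 4.61 times (3.33 to 6.54). Intervals there also lay above 1 for S100a8, Slc7a11, Hmox1 and Il18bp. They included 1 for Pf4, at 2.02 times (0.902 to 5.12), and Gclm, at 0.98 times (0.645 to 1.51). On the lower side were the MHC class II genes H2-Aa, H2-Eb1 and H2-Ab1 and the invariant chain Cd74, which antigen-presenting cells express. With the macrophage genes of the gate under 0.5%, H2-Eb1 stood at 0.561 times, H2-Ab1 at 0.615 times and Cd74 at 0.569 times, none past the rule, where they had stood at 0.0321, 0.0641 and 0.166 times. At that limit H2-Aa had 304 UMIs among 13 combination Tregs and 2998 among 119 isotype control Tregs, against 6 and 1454 before. H2-Aa stood at 2121, 978, 2487 and 44.7 in Tregs and at 817, 465, 151 and 2165 in Foxp3-negative CD4 T cells, so the combination was lowest in one class and highest in the other. The 11 dendritic cell markers summed to 10635, 5029, 11199 and 1118 in Tregs, with the most UMIs from Cd74. Of these markers Flt3, Xcr1, Clec9a, Cd209a, Zbtb46 and Fscn1 were at 0 in the combination. Further genes on the lower side were Rgs16, Il10, Mt2, Hist1h2ae, Mmp12 and Lyz1, and 1 isotype control Treg held 87.6% of the Mmp12 UMIs of its library, 83.8% of the Lyz1 UMIs and 75.8% of the Mt2 UMIs. Macrophage marker UMIs of the combination came to 56.1% from 1 cell. The 9 monocyte and neutrophil markers summed to 2086, 1359.7, 2351 and 4332, and the 12 T cell markers outside the gate to 8183, 11793, 9227 and 6136. Among Tregs under 1% macrophage UMIs, S100a8, Slpi, Slc7a11 and Acod1 stood at 276, 282, 27.6 and 55.2 times, against 227, 29.6, 32.4 and 11.2 times over all Tregs, with a side under 3 UMIs set to 3. These 4 no longer passed the rule because 2 of the 8 combination Tregs held their UMIs, fewer than the 3 it asks for. Il18bp, also in 2 cells, moved from 7.76 to 3.64 times, Cxcl9 from 15.2 to 2.06 times and Mt2 from 0.120 to 0.735 times, none past the rule. Beyond such values, the part of this RNA in the ratios was not tested.

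In the CTLA-4-titled Tregs the genes farthest above the isotype control were Trbv20, Trbv3, Prkcq, Ms4a4b and Ccr7, and those farthest below included Thbs1, Chil3, Mmp12 and Lyz1, for which 1 isotype control Treg held 55.2%, 40.3%, 87.6% and 83.8% of the UMIs of its library. Prkcq (protein kinase C-θ, which acts below the T cell receptor) had UMIs in 38 of 50 cells and stood at 4.79 times (3.32 to 6.99), whereas the T cell receptor segment Trbv20 had UMIs in 3 cells. All 12 macrophage markers considered were lower, with a median of 0.25. In the FcγRII-titled Tregs the genes farthest above were Trbv31, Hmox1, Cxcl10, Clec4e and Il1b, with between 53.4% and 92% of their UMIs in 1 cell each. Those farthest below were Thbs1, Nos2, Gzmc, Hist1h2ap and Fcgr4, for which 1 isotype control Treg held 55.2%, 45.1%, 93.8%, 44.9% and 11.8% of the UMIs of its library.

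**Figure D4:**
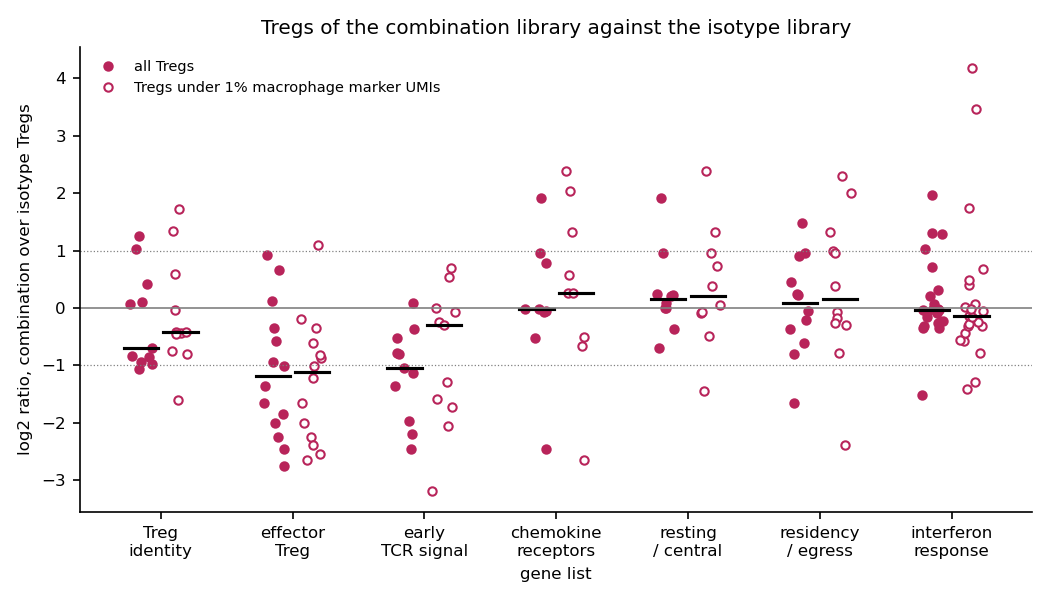
Log2 ratio of combination over isotype control Tregs (y axis) for the genes of 7 lists (x axis), over all Tregs and over Tregs under 1% macrophage marker UMIs. Bars are medians, dotted lines mark 2-fold, a side under 3 UMIs is set to 3, and genes at or under that on both sides are left out. The median ratio of effector Treg genes was 0.442 and that of resting genes 1.11.

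Tregs with a UMI of at least 2 of 18 G2/M genes, a description of cell cycle RNA, were 18.9% (11.7 to 29.1) of 88 isotype control Tregs, 17.1% (8.00 to 32.1) of 45 CTLA-4-titled, 11.9% (4.19 to 26.8) of 40 FcγRII-titled and 18.4% (2.28 to 51.8) of 11 combination Tregs, each drawn down to 2724 UMIs. All intervals overlapped, and a difference was not detectable at this depth. Undrawn shares were 33.0%, 27.5%, 37.0% and 45.5%. Mki67, made in dividing cells, stood at 241, 201, 127 and 67.1 CPM, with UMIs in 6 of 11 combination Tregs and a level relative to the isotype control of 0.279 times (0.125 to 0.542).

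The 11 combination Tregs held between 5112 and 27989 UMIs. Ikzf2 and Icos had UMIs in all 11, Il2ra, Ctla4, Tnfrsf4 and Tnfrsf18 in 9 each and Tnfrsf9 in 8. A cell of 15098 UMIs held 39 UMIs of Tnfrsf9, 42 of Gzmb, 33 of Il2ra and 15 of Ikzf2, and it supplied 70% of the Gzmb UMIs of the 11. Cells of 5148 and 7880 UMIs held 8 and 6 UMIs of Ccr7, with 1 and 0 of Tnfrsf9 and none of Itgae, Klrg1 or Gzmb. No other combination Treg had a Ccr7 UMI. Itgae was present in 5 cells, Klrg1 in 3 and Ccr8 in 3, with at most 7, 7 and 3 UMIs in a cell. The 3 cells over 1% macrophage marker UMIs were also the 3 with the most UMIs, at 16581, 24739 and 27989, and held 132, 63 and 91 UMIs of the myeloid gene Lyz2. The last of them held 864 UMIs of Apoe beside 14 of Foxp3 and 77 of Tnfrsf9. The 11 Tregs thus included cells with effector genes and cells with Ccr7.

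**Figure D5:**
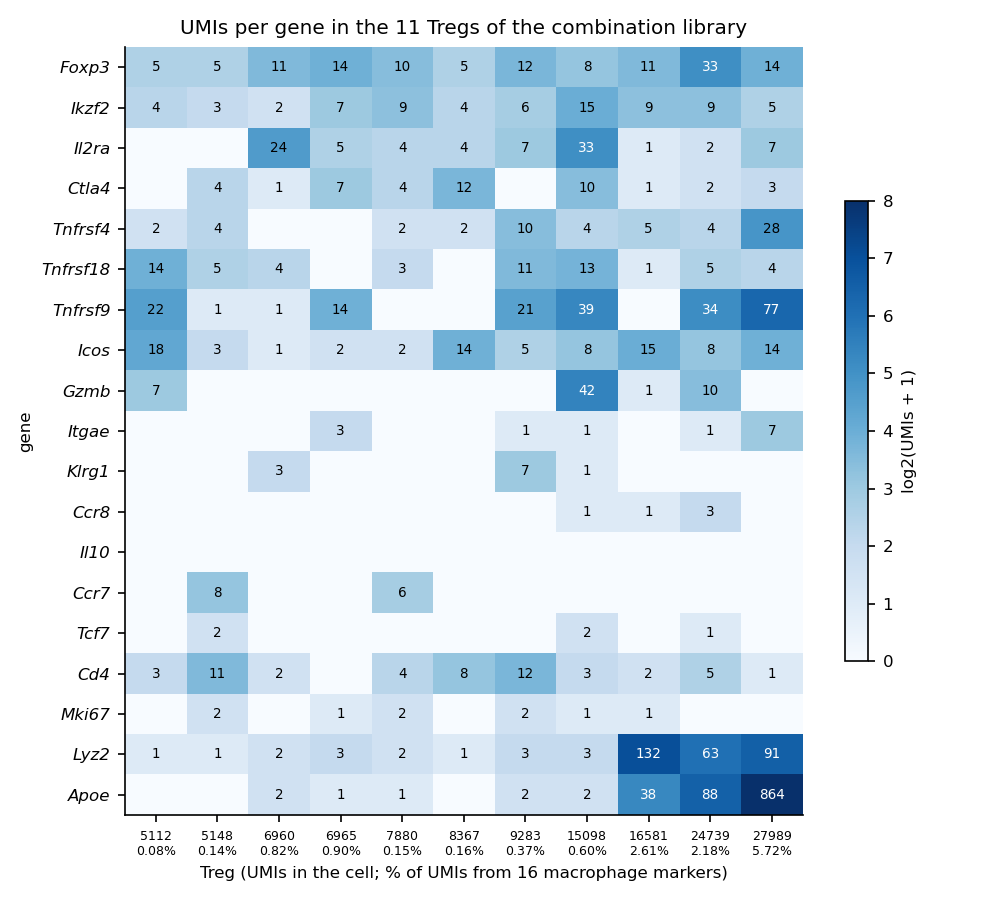
UMIs of named genes in each of the 11 combination Tregs, ordered by their total UMIs, with the percent of UMIs from 16 macrophage markers. Foxp3 and Ikzf2 are present in every cell, Il10 in none and Ccr7 in 2.

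At 2724 UMIs per cell, Klrg1 was present in 52.5%, 33.1%, 50.8% and 16% of Tregs, with intervals of 41.4 to 63.0 in the isotype control and 2.28 to 51.8 in the combination. Itgae was present in 47.9%, 26.0%, 47.3% and 17.8%, Il2ra in 83.7%, 69.6%, 82.3% and 58.6% and Ikzf2 in 85.0%, 91.2%, 83.2% and 79.5%. For these genes the combination had the lowest share and its interval overlapped that of the isotype control. Lrrc32 was present in 27.6%, 45.8%, 24.4% and 50.3% and Itgb1 in 31.4%, 59.8%, 30.3% and 60.5%, highest in the combination, again with overlapping intervals. With 11 cells these shares did not separate the combination from the isotype control. The narrower intervals of the summed levels count UMIs and leave out the spread between cells.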

How the data were processed

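Live CD45-positive cells of 4 pooled tumor samples had been fixed, hybridised with the probe sets of the 10x Chromium Flex assay and loaded as a pool, per the labels. The authors deposited raw UMI counts per gene and cell for 19059 genes, from Cell Ranger (7.2.0 in the file headers, 7.0.0 with mm10 in the submitters' processing notes). Reads were assigned through probes, so a level depends on the probes of a gene. Levels are not compared between genes, and naming the marker with the most UMIs in a sum does not rank expression.

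Of 28290 cells, 25, 26, 14 and 31 failed the limits on genes and mitochondrial UMIs. UMIs were summed per library and class and scaled to 1000000 UMIs of the class (CPM). Tregs and Foxp3-negative CD4 T cells were compared in edgeR 4.0.16 (R 4.3.3) with glmQLFTest, TMM, filterByExpr at a minimum count of 10, the library as a block and Benjamini-Hochberg adjustment over all genes tested. The SE given is the size of the log2 fold change divided by the square root of the F statistic of the test. Since both classes of a library come from the same pool of mice, the block pairs them, and p-values measure the spread between 4 libraries that differ in treatment. Between libraries, exact conditional intervals of the ratio, exact binomial and exact Poisson intervals (scipy 1.17.1) cover counting error only, and a side under 3 UMIs was set to 3 for the rule. Shares of cells with a UMI are means of 100 draws without replacement. For the shares of cells with a Foxp3 UMI after drawing, the mean number of cells was rounded to a whole cell. Doublets were not removed. Scrublet (scanpy 1.11.5) scores served as an alternative that left out the highest 5% of each library, which held 4, 0, 1 and 2 Tregs.

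Named genes were the 4 markers other than Foxp3, the 15 highest and 10 lowest log2 fold changes among calls with 1 direction in 4 libraries and at least 50 CPM in the higher class, the 10 genes on each side with the interval bound farthest from 1 in the combination and 5 on each side in each single-antibody library, and members of the lists with the highest level or the largest or smallest change. The members and lists were chosen with earlier results of these data known. Some genes that these rules name are not reported here. Gene positions are from GENCODE M21 on GRCm38.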

Additional observations from a re-analysis of the deposited data

Results flagged for a closer look

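Of 261 genes looked at, 6 had a ratio of Tregs to Foxp3-negative CD4 T cells past 2-fold, with a counting interval clear of 1, in one direction in the isotype control and in the opposite direction in another library. With 1 library per group the difference itself was not tested. Ccr8 had a ratio of 2.08 in the isotype control and 0.156 in the combination, Nr4a1 of 2.75 and 0.184, and Nr4a3 of 4.98 and 0.0996. The combination side rests on few UMIs. With the macrophage genes of the gate under 0.1%, these genes had 4, 12 and 3 UMIs in 2, 3 and 2 of 10 combination Tregs. Il10 had a ratio of 0.399 in the isotype control, where 1 Foxp3-negative cell held all 141 UMIs of the comparator, and 2.39 in the FcγRII-titled library. Penk, which encodes an enkephalin precursor, had a ratio of 2.08 in the isotype control, 0.483 in the CTLA-4-titled library and 0.286 in the FcγRII-titled library. Rrm2, a subunit of ribonucleotide reductase, had a ratio of 5.91 in the isotype control and 0.218 in the FcγRII-titled library. It stood at 27.7 CPM in the FcγRII-titled Tregs, where 3 UMIs would be 8.31 CPM.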

How the results depend on the processing

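Of 77 values for the Treg shares and their ratios, 7 under each of 11 alternatives, 74 moved by less than the counting interval. The exceptions were shares of 34.5%, 15.5% and 33.3% in the isotype control, CTLA-4-titled and FcγRII-titled libraries when all Foxp3-negative cells without Cd8 served as the rest. Counts of genes higher and lower in Tregs than in Foxp3-negative CD4 T cells, 21 and 25 with gate genes included, depended strongly on the setting. They were 134 and 110 without the 5 cells over 50000 UMIs, 71 and 120 without the need for a Cd4 UMI in the comparator, 82 and 47 with macrophage genes under 0.1%, 43 and 47 in DESeq2, 32 and 53 with no filter on low counts, and 44 lower with the 16 macrophage markers under 1%. Leaving out a library gave 8 to 25 higher and 10 to 23 lower (9 and 15 without the isotype control, 25 and 23 without the CTLA-4-titled, 10 and 10 without the FcγRII-titled and 8 and 14 without the combination library). No paired analysis by replicate number was possible because each group has 1 library, and without the library block the counts were 20 and 33. For the named genes of that test 406 values kept their direction and side of the threshold, 5 newly passed, 44 no longer passed and none changed sign.

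The 172 higher and 144 lower genes of the combination were 274 and 241 with a minimum of 50 CPM and 78 and 56 with 200, and 239 were lower by the mean over cells. The ratio turned for Mmp12 to 1.40 with macrophage genes under 0.5%, and, in the 5 combination and 55 isotype control Tregs without Mki67 or Top2a UMIs, for Hist1h2ae to 3.54 and Nrp1 to 0.786. For Hist1h2ae the 3.54 comes from setting 0 UMIs in the combination to 3, against 4 UMIs in the isotype control, and the observed level did not turn. Of the other values for named and listed genes 695 kept direction and call, 61 no longer passed and 29 newly passed. The cause of these changes was not tested. Shares of Tregs with G2/M genes were 33.0% in the isotype control and 37.0% in the FcγRII-titled library without drawing down. They were 47.4%, 45.9%, 41.9% and 53.5% with at least 1 gene and 9.67%, 6.91% and 3.10% in the first 3 libraries with at least 3. The settings that left out cells over 50000 UMIs, removed the macrophage limit or capped the 16 macrophage markers were chosen after seeing the data. The depth of 11 combination Tregs limits every statement on them. Intervals of levels and of their ratios do not cover the spread between cells, and no interval covers differences between mice.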
